A study of Mus musculus with 6 samples.

Results

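Semaphorins are secreted or membrane-bound guidance proteins, and plexins and neuropilins are their receptors. The family was taken by gene symbol, as the semaphorins of classes 3 to 7, the plexins of classes A to D and both neuropilins, which gave 31 of the 57132 genes listed. Of these, 20 encode ligands and 11 encode receptors. The genes were measured by total RNA sequencing of tdTomato-positive cells sorted from mouse embryos at E14.5, with 3 libraries per genotype. In Dnmt1 KO embryos, Sst-Cre and the tdTomato reporter were combined with floxed Dnmt1 alleles (Dnmt1 loxP2, from the Dnmt1tm2Jae strain), whereas control embryos carried Sst-Cre and tdTomato alone. Dnmt1 encodes the maintenance DNA methyltransferase. Sst-Cre is driven from the somatostatin locus and marks inhibitory interneurons that leave the medial ganglionic eminence for the cortex, so the loss of Dnmt1 was limited to cells with that Cre history. The tissue was the cortex, as the labels give it. Genotypes were told apart by the sample titles and library names, since the genotype field reads alike for all samples. The samples of a genotype were processed separately, per the study, and held cells pooled from several embryos with the sexes not separated. The study also describes RNA isolation from cells pooled by genotype, and the libraries as made from pooled material. The libraries of a genotype may thus be draws from a common pool, and whether samples shared embryos is not stated outright. The p-values therefore measure the spread between libraries, which may be technical.

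Class 3 semaphorins are secreted, and most of them bind a neuropilin, which in turn engages a class A plexin to carry the signal into the cell. Most semaphorins of the other classes sit in the membrane and bind plexins directly, and plexins act through small GTPases and cytoskeletal effectors to turn, halt or repel a growth cone or a migrating neuron. In mouse, interneurons bound for the cortex carry neuropilins and steer around the striatum, where class 3 semaphorins are made.

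Values are the authors' normalized counts, in which reads per gene were divided by a size factor per library. Log2 fold changes are of Dnmt1 KO over control on log2(normalized count + 1), tested with limma over the 14126 genes with a mean of at least 10 and called at a Benjamini-Hochberg adjusted p under 0.05. Libraries held 7154043 to 10089981 reads, and 1 read was worth 0.740 to 1.23 normalized counts. Dnmt1 itself was at 2411, 2243 and 2255 in Dnmt1 KO and at 3025, 2539 and 2741 in control (log2 fold change -0.26, adjusted p = 0.0218), a fall that left most of its reads in place. Per the study, the loxP sites flank only part of the gene, whereas counts per gene take reads from all exons. The count is thus no measure of intact Dnmt1. The study reports lower DNMT1 immunofluorescence in tdTomato-positive cells of Dnmt1 KO embryos at E14.5. Over all genes, 1079 were higher and 1638 lower in Dnmt1 KO. Control replicate 1 stood apart on the second principal component, which held 13.6% of the variance.

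Marker lists of several cell types moved with genotype under the authors' size factors. Of 16 interneuron markers of the medial ganglionic eminence, 13 were called higher and 0 lower. Their summed levels were 39503 to 40843 in Dnmt1 KO and 30954 to 33329 in control, and Lhx6, the most abundant, had a log2 fold change of 0.33. The 3 not called were Sst, Npy and Sox6 (adjusted p = 0.134, 0.874 and 0.100, limma). Of these, Sox6 went the other way, with all Dnmt1 KO libraries below all control libraries (log2 fold change -0.20). Of 10 radial glia markers, 6 fell and 1 rose (sums of 6422 to 6668 in Dnmt1 KO and 9082 to 9679 in control, most abundant gene Vim). Among markers of dividing cells, 6 of 8 fell (most abundant gene Mki67). Of 7 striatal projection neuron markers tested, 5 fell (sums of 388 to 445 in Dnmt1 KO and 1011 to 1064 in control, most abundant gene Foxp1). Of 9 diencephalic neuron markers, 8 fell (sums of 185 to 226 in Dnmt1 KO and 1804 to 1903 in control), and their most abundant gene, Tcf7l2, was at 34.1, 66.8 and 45.9 in Dnmt1 KO against 1168, 1089 and 1134 in control. This list holds Nkx2-1 and Lhx8 (log2 fold changes -2.83 and -3.45), which the medial ganglionic eminence also expresses, so the count of 0 falling eminence markers depends on where these 2 were placed. Among 5 tested markers of caudal ganglionic eminence interneurons 3 fell and 1 rose. The most abundant of them, Nr2f2, was not called (log2 fold change -0.07), and Vip was at 0 in every library. The excitatory lineage list had 1 gene higher (Neurod6, its most abundant) and 3 lower of 9. The Cajal-Retzius list had 0 higher and 1 lower of 5, and its most abundant gene, Reln, was not called. The meningeal list had 0 higher and 2 lower of 6, and its most abundant gene, Col3a1, was not called. The red blood cell list had 0 higher and 1 lower of 5, and its most abundant gene, Hba-a2, was not called. As 19.2% of all tested genes were called, the Cajal-Retzius and red blood cell counts are not read as shifts of those cell types. The 2 lower meningeal genes, named after their values were seen, were Col1a1 and Col1a2. Both were free of overlap between groups (log2 fold changes -1.46 and -0.78, adjusted p = 4.67e-06 and 0.000468, limma). The other 4 meningeal markers were not called, and whether meningeal cells shifted was not tested. The single oligodendrocyte precursor marker tested, Pdgfra, fell. No gene passed the test among 7 endothelial, 4 pericyte and 2 microglia markers, whose most abundant genes were Kdr, Pdgfrb and Csf1r. In bulk samples, fewer cells of a type and less RNA per cell cannot be told apart. The part of these shifts in the results below was not tested for any member, higher or lower, also where this is not repeated.

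Of the 31 members, 27 passed the filter on low values. Among these, 5 were higher in Dnmt1 KO (Sema3a, Sema4g, Sema7a, Plxna2 and Plxna3) and 6 were lower (Sema5a, Sema5b, Sema6d, Nrp2, Plxnb2 and Plxnc1), and 16 did not pass the test. Changed members thus made up 40.7% of those tested, against 19.2% of all genes tested and 22.4% of genes with a mean of at least 50. By direction, the backgrounds were 7.64% of all genes higher and 11.6% lower. The family was chosen with earlier results of these data known, so this excess, and that of ligands and receptors below, is no independent test. The backgrounds are also not matched in level, as the median level was 328.5 for tested members and 128.6 for all tested genes. The 3 Dnmt1 KO libraries lay wholly above or below the 3 control libraries in 15 of 27 members (7 above, 8 below), against 36.7% of all genes. The median log2 fold change was 0.01 over the tested members and 0.02 over all genes, both under size factors that centre the data. At an unadjusted p under 0.05, 14 of 27 members passed, against 4511 of 14126 genes. Without Dnmt1 KO replicate 3 the number of called members was 6, and without Dnmt1 KO replicate 2 it was 7.

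The scaling of the libraries set how many calls pointed up. With reads scaled by library totals in place of the authors' size factors, the all-gene median moved to 0.27 on the log2 scale, with 35.7% of all genes called higher and 7.52% lower, and 82.6% of calls pointing up against 39.7% with the authors' size factors (51.5% with quantile normalization). Among the members, 12 were then higher and 3 lower, as Nrp1, Plxna1, Plxnb1, Sema3f, Sema4c, Sema6b and Sema6c were called higher and Plxnb2, Plxnc1 and Sema5b were no longer called. The 11 called members had the same sign under every alternative tried, and Nrp2, Plxna2, Sema3a, Sema5a and Sema6d were called under all 17 of them.

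**Figure D1:**
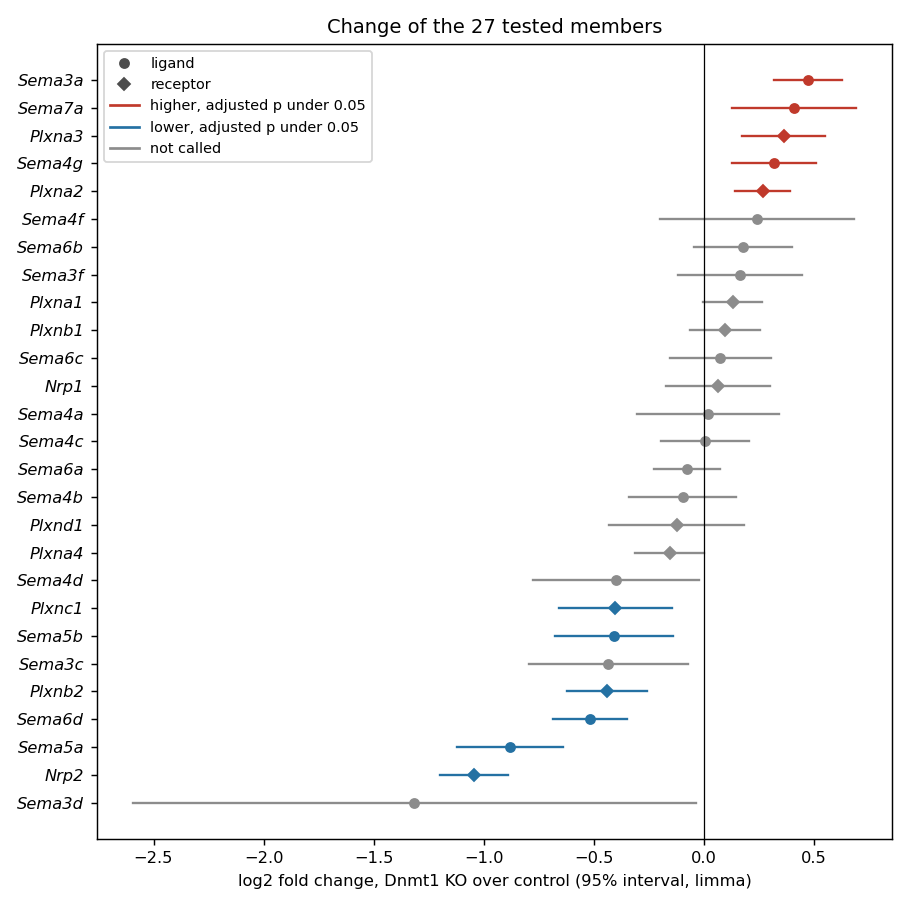
Log2 fold change of Dnmt1 KO over control for the 27 tested members, ordered by size, with 95% intervals from limma (circles are ligands, diamonds receptors, colours the call). Nrp2 and Sema5a were the lowest of the called members at -1.04 and -0.88, Sema3a was the highest at 0.47, and the low-count Sema3d had the widest interval.

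The neuropilins are co-receptors without catalytic activity that bind class 3 semaphorins, NRP1 chiefly SEMA3A and NRP2 chiefly SEMA3F. Nrp2 fell in Dnmt1 KO, while Nrp1 did not pass the test. Nrp2 (chromosome 1, 62742444 to 62857854, plus strand, GRCm39) was at 755, 834 and 714 normalized counts in Dnmt1 KO, against 1569, 1568 and 1604 in control. Every Dnmt1 KO library lay far below the lowest control library. Means ± SD of the 3 libraries were 768 ± 61.2 in Dnmt1 KO, against 1580 ± 20.1 in control. On the log2 scale Nrp2 changed by -1.04 (SE 0.07, adjusted p = 4.87e-07, limma). Nrp1 (chromosome 8) was at 184, 210 and 194 in Dnmt1 KO, against 180, 198 and 183 in control, and these ranges overlap. Its log2 fold change was 0.07 with a 95% interval of -0.17 to 0.30 (adjusted p = 0.717), and it was called only with scaling by total reads. The ratio of Nrp2 to Nrp1 within a library was 4.11, 3.97 and 3.68 in Dnmt1 KO and 8.71, 7.93 and 8.78 in control, a quantity that does not depend on the scaling of the library and was not tested on its own. Nrp2 fell together with the striatal and diencephalic marker sums given above, whose part in its fall was not tested.

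Class A plexins are the signalling partners of the neuropilins and also bind class 5 and class 6 semaphorins. They were the most abundant receptor class, and none of its genes was called lower. Plxna2 (chromosome 1, 194300526 to 194499177, plus strand) had 3040, 3156 and 3091 normalized counts in Dnmt1 KO and 2577, 2648 and 2484 in control. All Dnmt1 KO libraries exceeded all control libraries, with means of 3096 ± 58.3 in Dnmt1 KO and 2570 ± 82.5 in control (log2 fold change 0.27, SE 0.06, adjusted p = 0.00561). An opposite-strand gene, Gm6403, with a mean of 31.0, overlaps 15.4% of the exon bases of Plxna2. Plxna3, which pairs with NRP2 in the response to SEMA3F, lies on the X chromosome (73372672 to 73388295, plus strand). It was at 560, 616 and 674 in Dnmt1 KO and 489, 452 and 493 in control, again without overlap. The change of 0.36 in log2 units (SE 0.09, adjusted p = 0.0106) was a call that was lost without Dnmt1 KO replicate 3 (adjusted p = 0.0711).

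The sex-linked genes differed between genotypes in the same libraries. Xist, the RNA of the inactive X chromosome, was at 1956, 1965 and 1977 in Dnmt1 KO and 2605, 2956 and 2852 in control, and the Y-linked genes Kdm5d, Ddx3y, Eif2s3y and Uty were higher in Dnmt1 KO by 1.43, 1.46, 1.82 and 0.63 on the log2 scale. Of 503 X-linked genes tested, 45 were higher and 53 lower, and their median was -0.01 on the log2 scale. Over all tested genes, 7.64% were higher and 11.6% lower, so the X-linked counts are not read as a shift of that chromosome. A difference in the sex makeup of the pools would go along with genotype for every gene, autosomal ones included. The part of the sex makeup in the rise of Plxna3, or in the change of any other member, was not tested.

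The other class A plexins moved less. Plxna1, a receptor for SEMA6D and, with NRP1, for SEMA3A, was at 1549, 1627 and 1564 in Dnmt1 KO and 1422, 1507 and 1400 in control (log2 fold change 0.13, 95% interval -0.0043 to 0.27, adjusted p = 0.170). The groups did not overlap, but the difference did not pass the test, and it was called with quantile normalization and with scaling by total reads. Plxna4, a receptor of class 6 semaphorins and of SEMA3A, was at 585, 621 and 600 in Dnmt1 KO and 696, 656 and 658 in control (log2 fold change -0.15, adjusted p = 0.160), and its sign turned to 0.10 with scaling by total reads. Summed over the class, counts were 5734, 6021 and 5929 in Dnmt1 KO and 5185, 5263 and 5035 in control. Class A took 77.3%, 78.2% and 79.2% of plexin counts in Dnmt1 KO, against 72.4%, 73.3% and 73.3% in control, and within the class Plxna2 took 53.0%, 52.4% and 52.1% in Dnmt1 KO, against 49.7%, 50.3% and 49.3% in control. Both shares were higher in every Dnmt1 KO library than in any control library, but neither was tested, and they depend on the other plexins too.

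Class B plexins bind class 4 semaphorins and couple to RhoA through the guanine nucleotide exchange factors encoded by Arhgef11 and Arhgef12. Plxnb2 (chromosome 15, 89039749 to 89065211, minus strand), a receptor for SEMA4C and SEMA4G, was at 761, 724 and 637 in Dnmt1 KO and 1035, 925 and 918 in control. Every Dnmt1 KO library was below every control library. Means were 707 ± 63.5 in Dnmt1 KO and 959 ± 65.5 in control (log2 fold change -0.44, SE 0.08, adjusted p = 0.0025), and the call ended only with scaling by total reads (adjusted p = 0.106). Radial glia and dividing cell marker sums fell in the same libraries, and their part in the fall of Plxnb2 was not tested. Plxnb1, the receptor of SEMA4D, was at 626, 680 and 624 in Dnmt1 KO and 598, 607 and 598 in control. Its Dnmt1 KO libraries all lay higher, but the difference did not pass the test (log2 fold change 0.10, adjusted p = 0.394). Plxnb3, on the X chromosome, had 0 reads in all 6 libraries, which, by counting error alone, allows levels of up to 2.22 to 3.70 depending on the library, and no fold change was formed.

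The remaining plexins were the lowest of those detected, both in counts and per kilobase of transcript. Plxnc1 (chromosome 10, 94626728 to 94780877, minus strand), a receptor of SEMA7A, was at 179, 148 and 161 in Dnmt1 KO and 223, 227 and 195 in control. The groups did not overlap, and a change of -0.40 on the log2 scale was called (SE 0.12, adjusted p = 0.0315). The call was lost without Dnmt1 KO replicate 2 (adjusted p = 0.120), Dnmt1 KO replicate 3 (0.0948), control replicate 1 (0.0775) or control replicate 2 (0.0894), and also with DESeq2 (0.0615) and with scaling by total reads (0.355). Plxnd1, a receptor of SEMA3E known from blood vessels and axons, was at 119, 122 and 130 in Dnmt1 KO and 121, 160 and 126 in control (log2 fold change -0.12, 95% interval -0.43 to 0.18, adjusted p = 0.598). Its sign turned with scaling by total reads and without control replicate 2.

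**Figure D2:**
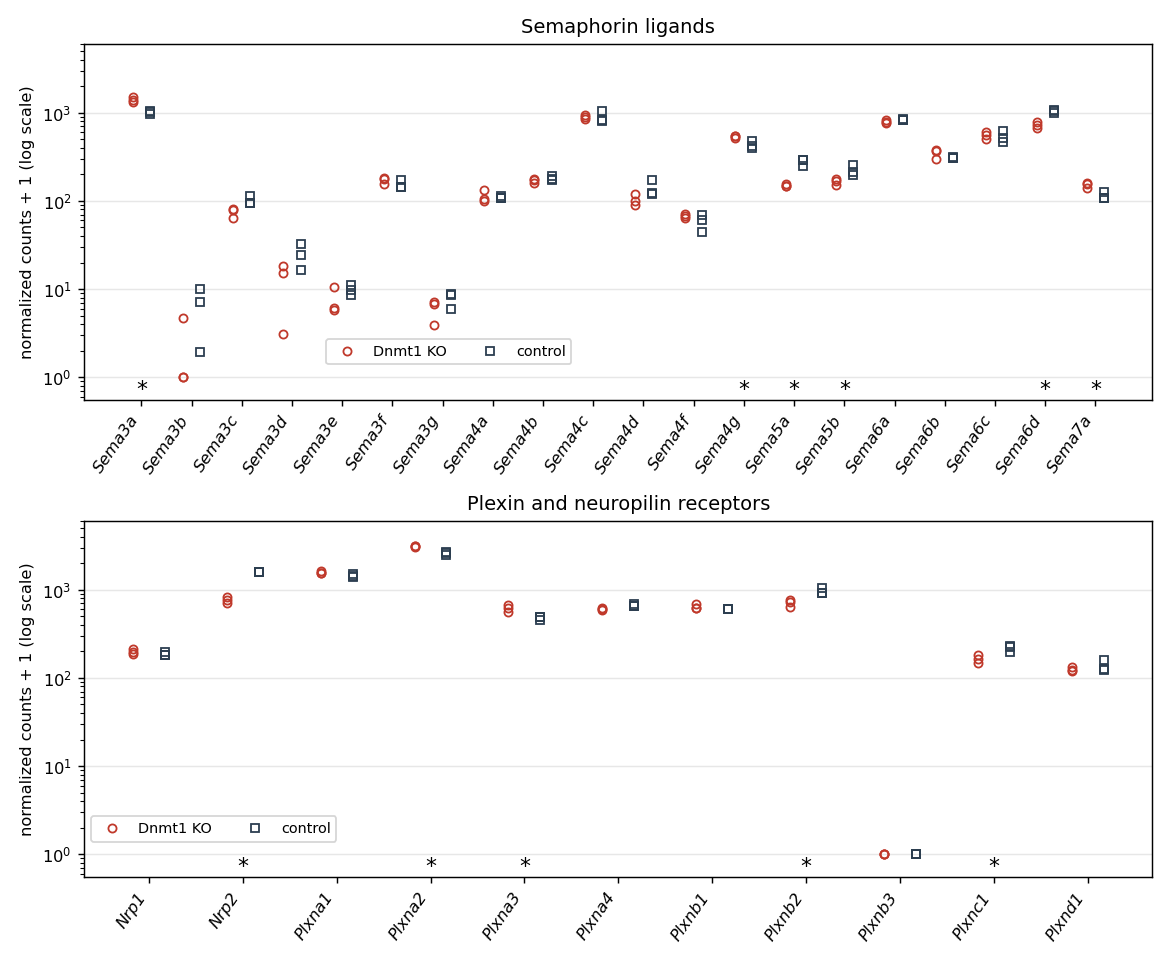
Normalized counts plus 1 on a log axis for each of the 20 ligands and 11 receptors, with Dnmt1 KO libraries as circles on the left and control libraries as squares on the right of each gene (3 each), and an asterisk under genes called with limma. Nrp2 shows the widest gap between tight groups, and the libraries of Sema3b, Sema3e and Sema3g lie near or under 10.

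Class 3 ligands were dominated by Sema3a, a repellent for many axons and for interneurons that carry NRP1. Sema3a (chromosome 5, 13175288 to 13653578, plus strand) was at 1511, 1313 and 1401 in Dnmt1 KO, against 1028, 972 and 1038 in control. The lowest Dnmt1 KO library was above the highest control library. Means were 1408 ± 99.1 in Dnmt1 KO and 1013 ± 35.9 in control (log2 fold change 0.47, SE 0.07, adjusted p = 0.000451), the highest fold change of the tested members. Sema3a made up 85.5%, 82.1% and 84.3% of class 3 counts in Dnmt1 KO and 78.7%, 76.2% and 77.2% in control. It was the only class 3 ligand called of the 4 tested. Sema3a rose together with the interneuron marker sum given above, whose part in its rise was not tested.

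Sema3c, Sema3d and Sema3e lie on chromosome 5 as Sema3a does. Sema3c, an attractant for cortical axons in mouse, was at 63.0, 79.3 and 78.5 in Dnmt1 KO and 93.8, 113 and 92.4 in control (log2 fold change -0.43, adjusted p = 0.0894), with no overlap between the groups. Sema3d was at 2.07, 17.4 and 14.1 in Dnmt1 KO and 23.5, 31.2 and 15.6 in control (log2 fold change -1.31, 95% interval -2.59 to -0.03, adjusted p = 0.146), and it had as few as 2 reads in a library. Neither passed the test. Sema3f, the NRP2 ligand on chromosome 9, was at 181, 178 and 152 in Dnmt1 KO and 141, 143 and 173 in control, which overlap (log2 fold change 0.17, 95% interval -0.11 to 0.45, adjusted p = 0.413). Sema3b, Sema3e and Sema3g had between 0 and 13 reads per library and were not tested. Sema3e, the PLXND1 ligand, was at 5.16, 4.84 and 9.62 in Dnmt1 KO and 8.64, 7.57 and 10.0 in control. Sema3b was at 0, 0 and 3.70 in Dnmt1 KO and 6.17, 0.946 and 8.91 in control, and Sema3g at 6.20, 5.81 and 2.96 in Dnmt1 KO and 4.94, 7.57 and 7.80 in control, and the groups overlapped for all 3 genes.

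Class 4 semaphorins are membrane ligands, mostly of class B plexins. Sema4g (chromosome 19, 44977540 to 44991836, plus strand) was at 517, 548 and 539 in Dnmt1 KO and 393, 477 and 419 in control. The groups did not overlap, and means were 535 ± 15.6 in Dnmt1 KO and 429 ± 43.1 in control (log2 fold change 0.32, SE 0.09, adjusted p = 0.0231). The call was lost without Dnmt1 KO replicate 2 (adjusted p = 0.0844), Dnmt1 KO replicate 3 (0.0840), control replicate 1 (0.0669) or control replicate 3 (0.0661). The opposite-strand gene Mrpl43, with a mean of 144, overlaps 12.7% of its exon bases. Sema4c, the most abundant of the class, was at 895, 853 and 927 in Dnmt1 KO and 1041, 806 and 834 in control. Its control libraries enclosed the others, and the log2 fold change was 0.01 with a 95% interval of -0.20 to 0.21 (adjusted p = 0.977), negative under some alternatives and called only with scaling by total reads. Sema4d, the PLXNB1 ligand, was at 120, 89.0 and 98.5 in Dnmt1 KO and 117, 121 and 170 in control, with overlap (log2 fold change -0.40, 95% interval -0.77 to -0.02, adjusted p = 0.133). Opposite-strand Secisbp2, with a mean of 113, overlaps 13.7% of the exon bases of Sema4d. The libraries of Sema4a, Sema4b and Sema4f ran from 62.9 to 176 in Dnmt1 KO and from 43.4 to 191 in control, and their log2 fold changes of 0.02, -0.10 and 0.24 had adjusted p-values of 0.946, 0.601 and 0.447. The sign turned for Sema4a with protein-coding size factors or without Dnmt1 KO replicate 2, and for Sema4b with scaling by total reads.

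Class 5 semaphorins carry thrombospondin repeats, and in the mouse retina SEMA5A and SEMA5B act through PLXNA1 and PLXNA3. Both genes fell. Sema5a (chromosome 15, 32244919 to 32696487, plus strand) was at 145, 147 and 153 in Dnmt1 KO, against 293, 245 and 286 in control. The groups lay far apart, with means of 148 ± 4.45 in Dnmt1 KO and 275 ± 25.8 in control (log2 fold change -0.88, SE 0.11, adjusted p = 0.000104). Sema5b (chromosome 16, 35360820 to 35485102, plus strand) was at 151, 166 and 175 in Dnmt1 KO and 195, 251 and 210 in control. The groups did not overlap (log2 fold change -0.41, SE 0.12, adjusted p = 0.0353), but the call was less secure. It was lost without Dnmt1 KO replicate 1 (adjusted p = 0.112), 2 (0.0836) or 3 (0.0646), without control replicate 2 (0.130) or 3 (0.0623), with DESeq2 (0.0575) and with scaling by total reads (0.348). Together they summed to 295, 314 and 328 in Dnmt1 KO and 488, 496 and 497 in control.

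Class 6 semaphorins are transmembrane ligands of class A plexins. Sema6d (chromosome 2, 123931715 to 124509928, plus strand), a ligand of PLXNA1, was at 726, 660 and 783 in Dnmt1 KO, against 994, 1062 and 1041 in control. All Dnmt1 KO libraries were below all control libraries, with means of 723 ± 61.7 in Dnmt1 KO and 1032 ± 34.7 in control (log2 fold change -0.52, SE 0.08, adjusted p = 0.000453). Sema6a, a ligand of PLXNA2 and PLXNA4, was at 831, 776 and 760 in Dnmt1 KO and 842, 832 and 817 in control, with a log2 fold change of -0.07 (95% interval -0.22 to 0.08, adjusted p = 0.498) that turned to 0.18 with scaling by total reads. Sema6b was at 300.5, 377 and 371 in Dnmt1 KO and 303, 312 and 307 in control (log2 fold change 0.18, adjusted p = 0.257). Sema6c was at 506, 595 and 557 in Dnmt1 KO and 614, 458 and 510 in control (log2 fold change 0.08, adjusted p = 0.669). The groups overlapped for Sema6a, Sema6b and Sema6c, and the sign of Sema6c turned without control replicate 2.

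Sema7a (chromosome 9, 57847375 to 57870151, plus strand), a GPI-anchored ligand of PLXNC1 and integrins, was at 154, 157 and 140 in Dnmt1 KO and 107, 124 and 107 in control. It did not overlap between groups and was called higher (log2 fold change 0.41, SE 0.13, adjusted p = 0.0421), while its receptor gene Plxnc1 was called lower. Both calls were among the least stable. That of Sema7a was lost when any library other than control replicate 2 was left out (adjusted p of 0.108, 0.135 and 0.0776 without Dnmt1 KO replicates 1, 2 and 3, and 0.0910 and 0.113 without control replicates 1 and 3). It was also lost with DESeq2 (0.120), limma-voom (0.0569), a replicate block (0.0559), no filter (0.0586) and protein-coding size factors (0.0611).

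**Figure D3:**
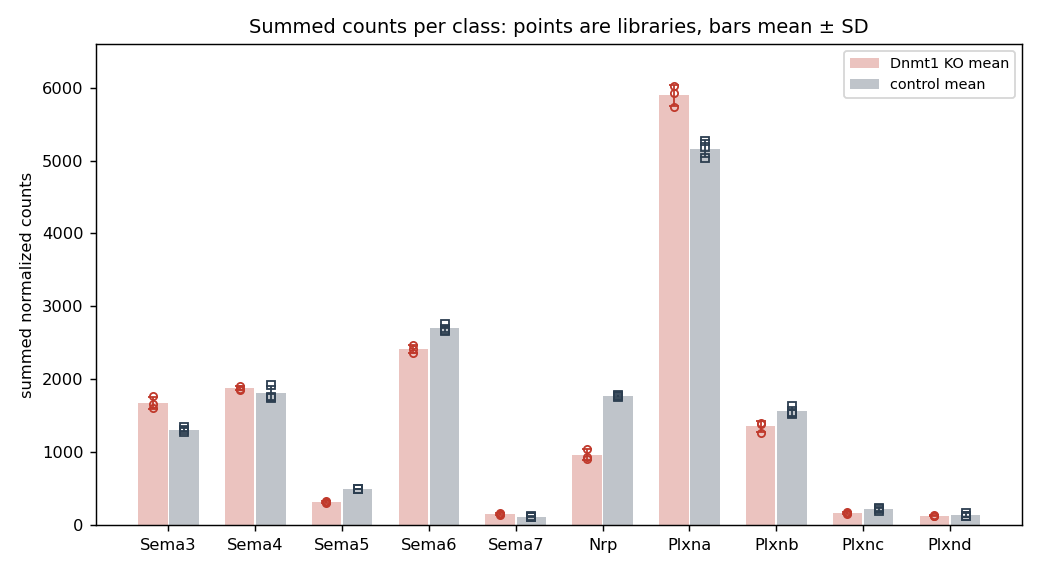
Summed normalized counts of each semaphorin class, the neuropilins and each plexin class, with 1 point per library and bars at the mean ± SD (3 Dnmt1 KO libraries on the left, 3 control libraries on the right). The neuropilin and class 5 sums were lower in Dnmt1 KO (963 ± 71.6 in Dnmt1 KO against 1767 ± 18.4 in control, and 312 ± 16.3 against 493 ± 4.93), whereas the class A plexin and class 3 sums were higher (5894 ± 147 against 5161 ± 116, and 1676 ± 85.6 against 1309 ± 35.6).

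Calls were then set side by side for ligands and receptors. Of 17 ligands tested, 3 were higher, 3 lower and 11 not called, and of 10 receptors tested, 2 were higher, 3 lower and 5 not called, with median log2 fold changes of 0.01 for ligands and -0.03 for receptors. These were 35.3% of ligands and 50% of receptors, against 19.2% of all genes and 22.4% of genes with a mean of at least 50, and whether the shares of ligands and receptors differ was not tested. Called ligands numbered 3 without Dnmt1 KO replicate 2, Dnmt1 KO replicate 3 or control replicate 3, and called receptors numbered 3 without Dnmt1 KO replicate 3. Summed counts of all ligands were 6438, 6337 and 6511 in Dnmt1 KO and 6570, 6300 and 6383 in control, which overlap. Receptor sums were 8357, 8739 and 8389 in Dnmt1 KO and 8911, 8949 and 8658 in control, which overlap too. The ratio of ligand to receptor counts averaged 0.757 ± 0.0279 (SD) in Dnmt1 KO, against 0.726 ± 0.0192 in control. The changes of single members thus left the totals on each side overlapping between genotypes, under the authors' size factors.

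Levels of different genes were compared per kilobase of the canonical transcript. In control, Nrp2, Plxna2 and Sema4c had the highest means, of 234, 232 and 207 normalized counts per kilobase, and did not differ beyond the spread of their libraries (Sema4c ran from 187 to 242). Sema6a (173) came next, then Sema6d (156), Plxnb2 (143) and Sema3a (136), of which neighbours in this order overlapped from Sema6d on. In Dnmt1 KO, Plxna2 led alone with 280 per kilobase, followed by Sema4c (207) and Sema3a (189), whose libraries overlapped, and Sema6a (164). Nrp2 was the eighth in Dnmt1 KO at 114 per kilobase, its libraries (106 to 123) overlapping those of Sema4g and Plxna1 above it and of Sema6d and Plxnb2 below it. Nrp1 stayed low on this scale, at 38.2 per kilobase in Dnmt1 KO and 36.4 in control. The lowest detected members in both groups were Sema3d, Sema3g, Sema3b and Sema3e, with group means of 0.333 to 1.71 per kilobase in Dnmt1 KO and 1.27 to 3.58 in control.

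Because DNMT1 maintains methylation at CpG sites, CpG letters were counted on GRCm39 in the 250 bases before the start of each gene's GENCODE M39 canonical transcript. This start need not be the first of the gene. In 13 of the 31 members the window lay at least in part within the annotated gene and in 13 it held exon bases, so it is a promoter window only for some members. The motif is CG, which reads alike on both strands. It was present in this window in all 31 members and in 99.1% of the 11990 tested protein-coding genes, with a median of 14 CpG in the tested members and 13 in those genes. Methylation itself was not analysed here. The windows of the called members with the largest falls (Nrp2, Plxnc1) and rises (Sema7a, Plxna3), among the 17 members whose window lay outside the gene and free of annotated exons, are printed below 5′ to 3′ on the strand of the gene, with CpG in capitals, as examples of CpG content in members that changed. They hold 31, 26, 15 and 12 CpG in that order. They do not span the called members, whose windows held from 4 CpG (Sema3a, higher) to 32 (Sema6d, lower), with 6 in Sema5b, which was lower, all 3 of these windows lying within the gene.
Nrp2 (chr1:62742194-62742443, plus strand): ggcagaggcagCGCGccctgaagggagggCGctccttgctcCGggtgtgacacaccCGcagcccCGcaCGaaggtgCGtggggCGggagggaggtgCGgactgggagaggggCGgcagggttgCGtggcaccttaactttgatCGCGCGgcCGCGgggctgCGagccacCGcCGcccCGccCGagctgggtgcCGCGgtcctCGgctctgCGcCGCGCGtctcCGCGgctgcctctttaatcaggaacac
Plxnc1 (chr10:94780878-94781127, minus strand): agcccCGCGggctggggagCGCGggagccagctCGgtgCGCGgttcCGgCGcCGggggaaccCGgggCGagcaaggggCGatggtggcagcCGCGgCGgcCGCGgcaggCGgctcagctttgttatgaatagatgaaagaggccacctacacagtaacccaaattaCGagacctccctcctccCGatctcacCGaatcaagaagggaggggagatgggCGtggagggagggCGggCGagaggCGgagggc
Sema7a (chr9:57847125-57847374, plus strand): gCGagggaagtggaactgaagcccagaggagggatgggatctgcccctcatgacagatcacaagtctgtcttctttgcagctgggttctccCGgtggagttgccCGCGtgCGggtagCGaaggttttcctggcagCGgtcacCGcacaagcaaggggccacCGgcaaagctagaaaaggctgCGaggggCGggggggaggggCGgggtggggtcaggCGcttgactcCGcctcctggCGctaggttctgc
Plxna3 (chrX:73372422-73372671, plus strand): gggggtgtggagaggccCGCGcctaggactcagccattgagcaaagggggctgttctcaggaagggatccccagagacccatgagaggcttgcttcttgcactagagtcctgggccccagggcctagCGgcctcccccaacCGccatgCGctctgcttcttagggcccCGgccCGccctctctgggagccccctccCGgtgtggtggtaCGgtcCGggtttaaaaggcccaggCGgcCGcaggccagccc

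Genes that act beneath the receptors were taken as a list of 34 intracellular effectors, of which 33 were tested. There, 6 were higher, 3 were lower and 24 were not called, so 27.3% were called, against 19.2% of all genes and 22.4% of those with a mean of at least 50. The list's median was 0.06 on the log2 scale, against 0.02 over all genes. Cdk5r1, the activator of CDK5, was at 2111, 2274 and 2230 in Dnmt1 KO and 1529, 1670 and 1624 in control, without overlap (log2 fold change 0.46, adjusted p = 0.000243). Arhgef12, an exchange factor that binds class B plexins, was higher by 0.31 on the log2 scale (adjusted p = 0.00329). Dpysl3, of the collapsin response mediator family, was at 6368, 6775 and 6610 in Dnmt1 KO and 8474, 7925 and 7989 in control (log2 fold change -0.30, adjusted p = 0.00282). Rnd3, a small GTPase, and Limk1, the kinase of cofilin, fell by 0.28 and 0.32 (adjusted p = 0.0191 and 0.0252). The 4 other called effectors, named after their values were seen, were Cdk5, Cfl1, Arhgef11 and Crmp1, higher by 0.34, 0.19, 0.27 and 0.17. Cdk5 encodes the kinase that Cdk5r1 activates, Cfl1 encodes cofilin, and Crmp1 belongs to the same mediator family as Dpysl3, which went the other way.

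Of 20 co-receptors and partners, 15 were tested, with 1 higher, 1 lower and 13 not called, so 13.3% were called, below the 19.2% of all genes. Chl1, an adhesion molecule that binds neuropilins, was at 5546, 5358 and 5490 in Dnmt1 KO and 3814, 3736 and 4028 in control (log2 fold change 0.50, adjusted p = 4.93e-05). Robo1, the SLIT receptor, which in mouse interneurons is linked to semaphorin receptor levels, was at 540, 462 and 486 in Dnmt1 KO and 899, 969 and 917 in control (log2 fold change -0.91, adjusted p = 4.53e-06). Both were free of overlap between groups. Over both lists, 7 genes were higher and 4 lower (22.9% called, close to the 22.4% of genes with a mean of at least 50), and the number of calls changed with the scaling and the libraries used: 28 with scaling by total reads (27 higher and 1 lower), 7 with protein-coding size factors or no filter, 6 without Dnmt1 KO replicate 3, and 7 without Dnmt1 KO replicate 1 or 2 or without control replicate 3.

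**Figure D4:**
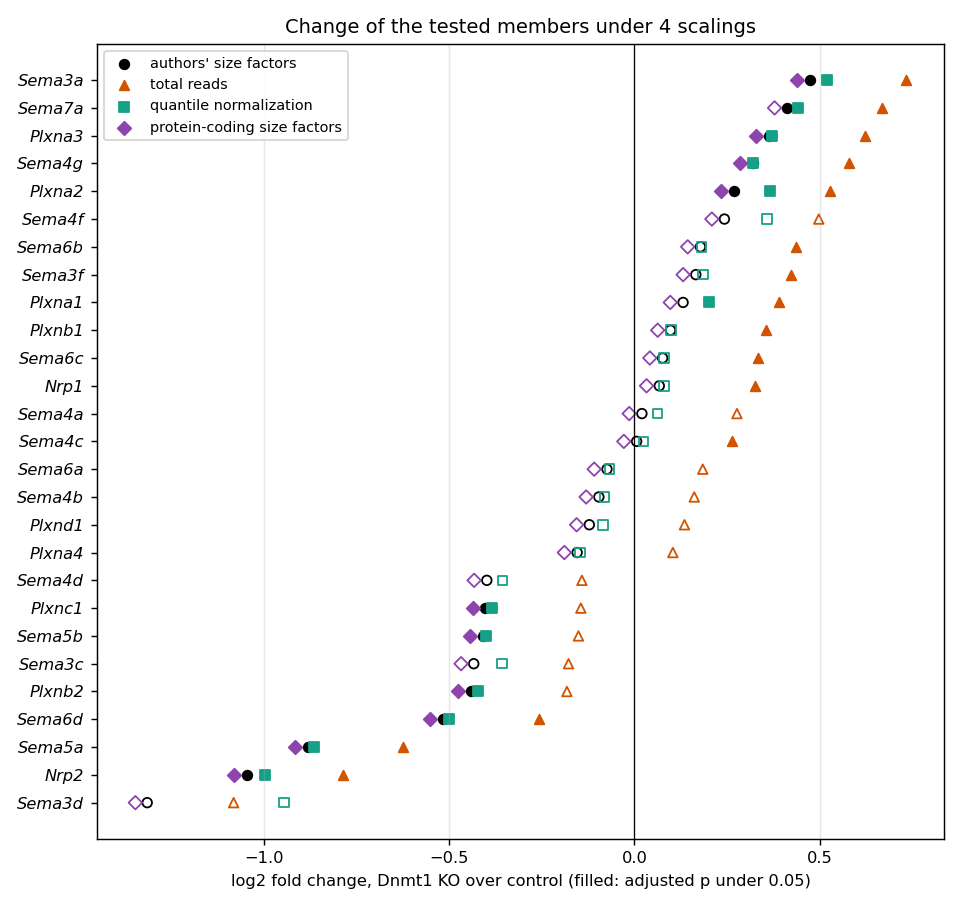
Log2 fold change of Dnmt1 KO over control for the 27 tested members under the authors' size factors, scaling by total reads, quantile normalization and size factors from protein-coding genes, with filled symbols where the adjusted p (limma) was under 0.05. Scaling by total reads moved every member to the right, while Nrp2, Sema5a and Sema6d stayed called as lower and Sema3a, Plxna2, Plxna3 and Sema4g as higher under all 4.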

How the data were processed

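Reads were trimmed, aligned to GRCm39 and quantified per gene by the authors (with Trim Galore 0.6.10, STAR 2.7.11b, Salmon 1.10.3 and DESeq2 1.42.1 per the submitters' processing notes, and other versions per the study's methods). The kit was stranded, whereas no source used here gives the strand setting of the counting. The deposited signal is a table of normalized counts per gene by the authors, with reads divided by 1 size factor per library and no filter on abundance. All values were whole multiples of 1 step per library (100% within a tolerance of 0.001), so reads were recovered for the count models, and per-gene counts of a group's libraries differed by more than sampling noise (chi-square per gene 3.45 to 12.8). Deposited columns of the authors' own comparison (fold changes, p-values, ontology and ranked-list enrichments) were not used. No column of values lacked a sample (0 unmapped).

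Genes with a mean of at least 10 were tested on log2(value + 1) with limma 3.58.1 (trend) in R 4.3.3, two-sided, with Benjamini-Hochberg adjustment over all 14126 genes. On recovered reads, edgeR 4.0.16 called 2732 genes and DESeq2 1.42.0 called 2342. Other alternatives were a pseudocount of 5, a minimum mean of 50 or none, other scalings, limma-voom, a replicate block and leaving out each library. Positions and transcript lengths came from GENCODE M39, in which 0.879% of listed genes were missing. Every member is named. Of other genes, Dnmt1, up to 5 called genes with the smallest p per pathway list, the most abundant gene of each cell type list and the sex-linked genes are named by rule. Others are named where they overlap a member or were at 0, or were chosen after their values were seen. Members and lists were chosen with earlier results of these data known. Precision is limited by 3 libraries per genotype and by reads, and floors cover counting error only, since molecular identifiers are not stated to have been used.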

Additional observations from a re-analysis of the deposited data

How the results depend on the processing

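With scaling by total reads, 6108 genes and 28 pathway genes outside the family were called, against 2717 and 11 with the authors' size factors, and 7 pathway genes were called with no filter or with size factors from protein-coding genes. Leaving out 1 library gave 1742 to 2512 genes, 6 to 9 members, 3 to 5 ligands, 3 to 5 receptors and 6 to 9 pathway genes, with the lowest member count without Dnmt1 KO replicate 3 (7 without Dnmt1 KO replicate 2). Signs turned only for members that were not called. With scaling by total reads these were Plxna4 (0.10), Plxnd1 (0.13), Sema4b (0.16) and Sema6a (0.18), with protein-coding size factors Sema4a (-0.0143) and Sema4c (-0.0288), and with edgeR Sema4c (-2.8e-05). With 1 library left out, Sema4a ran from -0.103 to 0.0946, Sema4c from -0.0639 to 0.120, Sema6c from -0.0203 to 0.191 and Plxnd1 from -0.198 to 0.0019. The causes of these turns were not tested. Whether replicate numbers pair the libraries is not stated. Deviations of same-numbered libraries correlated at -0.02, 0.06 and -0.03, which with 3 libraries per genotype cannot decide it. With a replicate block, 2528 genes and 10 members were called, the call of Sema7a being lost.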

Other observations

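Plxdc2, which encodes a transmembrane protein with a plexin-like domain and lies outside the family as defined here, was singled out after its values were seen. It was at 323, 280 and 346 normalized counts in Dnmt1 KO and 209, 185 and 223 in control, without overlap (log2 fold change 0.62, SE 0.11, adjusted p = 0.00193, limma).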
